A study of Mus musculus with 4 samples.

Results

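Complement and coagulation factors are plasma proteins that the liver makes and secretes, and their messages were followed here as 42 genes of the 33639 in the deposited tables: 21 of complement and 21 of coagulation, chosen by gene symbol. Liver RNA was sequenced from 4 male mice fed standard chow and given no treatment, 1 mouse and 1 library per genotype. The wild-type animal (WT) carried neither deletion, the Cyp27a1 KO lacked Cyp27a1 in all tissues, the Cyp3a KO carried a global deletion that the labels name Cyp3a4, the human symbol, and the double knockout (DKO) carried both. The sources used here give neither age nor strain. CYP27A1 is the sterol 27-hydroxylase of bile acid synthesis, and CYP3A enzymes hydroxylate steroids and bile acids, so the comparisons ask how the message for these plasma proteins stood in liver without one or both enzymes.

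Complement works as a cascade of proteases. The classical pathway starts from antibody and the lectin pathway from sugars on microbes, the alternative pathway amplifies both at C3, and the terminal components C5 to C9 build a pore, the membrane attack complex. Coagulation is a parallel cascade of liver-made proteases that ends in thrombin, which turns fibrinogen into fibrin; anticoagulants restrain it and plasmin dissolves the clot. Hepatocytes are the main source of most of these proteins, many of which are acute-phase proteins, and terminal complement activity is known to be higher in male than in female mice.

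The libraries held 49745860 to 50378101 counts. All 42 members passed the filter of a mean of at least 1 on the CPM scale (counts scaled by library size and composition) over the 4 libraries, as did 11743 of all genes, and the smallest member count was 555. The deleted genes stood where the labels put them: Cyp27a1 was at 746 CPM in WT and 727 in Cyp3a KO against 57.7 in Cyp27a1 KO and 65.3 in DKO, and Cyp3a11, a main liver Cyp3a gene of the mouse, was at 8742 and 23706 CPM in WT and Cyp27a1 KO against 0.160 and 4.76 in Cyp3a KO and DKO. Hepatocyte markers passed the filter in 10 of 10 cases, with Alb at 37953 to 72499 CPM. In the DKO liver, all 15 listed genes known to be higher in male mouse liver were below WT, 12 of them by 2-fold or more (median log2 fold -3.87). Of the 10 female-biased genes past the filter, 8 were above WT and 2 below, each by 2-fold or more (median 5.10). Their part in the results below was not tested.

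With 1 animal per genotype there is no replicate check and no p-value. A call here is a rule of size: the CPM had to differ at least 2-fold, and 1 had to lie outside the exact 95% interval for the ratio of the counts. The interval is computed from the counts alone, so it covers counting error only. Reads were not tagged by molecule, so repeat copies may count as separate reads. The interval holds nothing of the variation between animals.

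Neither single knockout had a member past 2-fold, whereas the DKO had 4, all lower and all of complement. In Cyp27a1 KO against WT, 0 of 42 members were called, where the rule called 3.81% of all genes past the filter. In Cyp3a KO against WT it was also 0 of 42, against 4.43% of all genes. In DKO against WT, C9, C6, C8b and Mbl1 were called lower and no member higher, so 4 of 42 stood beside 4.02% of all genes called lower. Over all genes, 472 were called lower and 705 higher in that comparison. At 1.5-fold on the scaled counts, 8 members were lower in DKO than in WT and none was higher. Of all genes, 10.5% were lower and 13.6% higher, or 24.1% in all. The 4 members added to the calls were Vtn, Fga, Fgg and F11. F11, of coagulation, was 1.99-fold below WT, just short of the 2-fold rule that Mbl1 just passed at 2.02-fold.

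The DKO stood apart from each single knockout in much the same members. Against Cyp3a KO, C9, C6, C8b and F11 were called lower and Cfp higher, which makes 5 of 42 beside 6.72% of all genes in either direction, with 4 lower beside 2.70%. Against Cyp27a1 KO, C9, C6, C8b and F11 were called lower, 4 of 42 beside 5.42% in either direction and 2.59% lower. At 1.5-fold, 9 members were past the rule against Cyp3a KO and 8 against Cyp27a1 KO, beside 17.0% and 14.5% of all genes. In Cyp27a1 KO against WT the same rule took 0 members, beside 11.9% of all genes. In Cyp3a KO against WT it took F11 as higher and C9 as lower, beside 7.38% of all genes higher and 5.66% lower. All 3 DKO comparisons use the same DKO library, so they are not independent of each other.

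**Figure D1:**
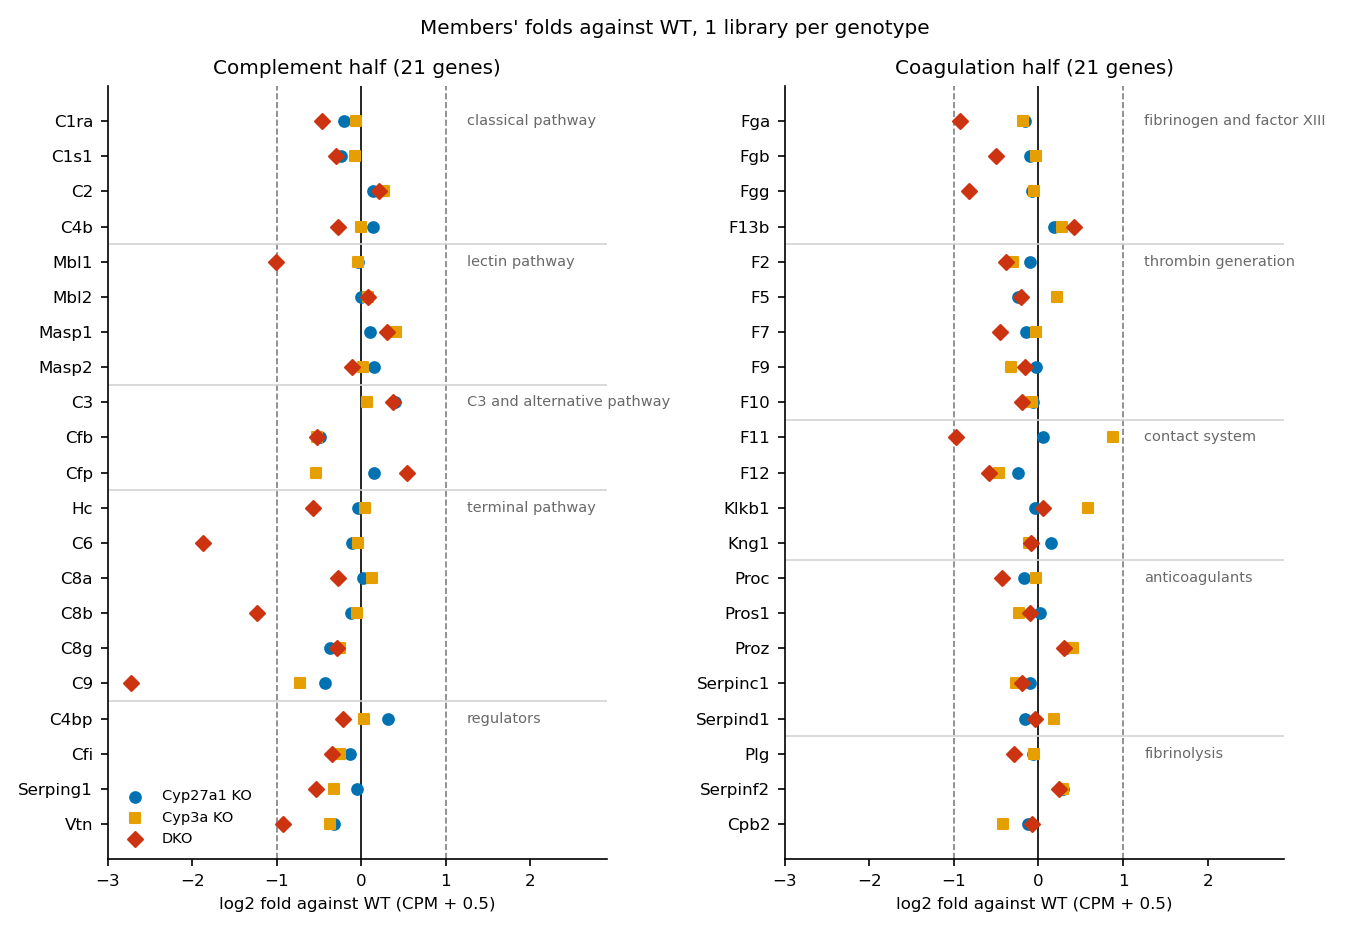
Each member's log2 fold against WT (CPM + 0.5) in the Cyp27a1 KO (circles), Cyp3a KO (squares) and DKO (diamonds) libraries, with complement genes on the left and coagulation genes on the right, grouped by role; dashed lines mark 2-fold. The DKO points of C9, C6, C8b and Mbl1 lie beyond the lower dashed line at -2.72, -1.87, -1.23 and -1.01, and no point lies beyond the upper one.

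Set side by side, complement and coagulation genes differed little in the middle of their distributions and more at the ends. The median log2 fold in DKO against WT was -0.30 for complement and -0.19 for coagulation, with all genes at -0.01. Against Cyp3a KO the medians were -0.23 and -0.12, and against Cyp27a1 KO they were -0.26 and -0.13. In the single knockouts both sets stayed close to the median of all genes: complement was at -0.04 in Cyp27a1 KO and -0.04 in Cyp3a KO, and coagulation at -0.08 and -0.05. The difference of the medians, complement minus coagulation, was -0.11 in DKO against WT. It was -0.11 against Cyp3a KO and -0.13 against Cyp27a1 KO, but the former became 0.0033 once the members with a near-identical copy were left out.

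The sign of these small medians depended on the scaling, while that of the 4 called folds did not. The deposited TPM values, which are scaled by transcript length and library, put the median of all genes at 0.33 in DKO against WT, and there complement stood at 0.06 and coagulation at 0.19, above 0 but still below the median gene. On that scale, too, the all-gene calls split as 1259 higher and 266 lower, against 705 and 472 on the scaled counts. Members past 1.5-fold in TPM went both ways in DKO against WT, where the median gene itself stood at 0.33. No all-gene share at 1.5-fold in TPM is given here. F13b, Cfp, Serpinf2, Masp1, C2, C3 and Proz were higher, at log2 folds of 0.60 to 0.80. C9, C6, C8b and Mbl1 were lower, at -0.66 to -2.35. Scaling by library totals moved the median of all genes to 0.17, and the medians to -0.10 for complement and 0.01 for coagulation. In DKO against WT, 33 of 42 members were below 0 on the scaled counts, beside 6063 of 11743 genes past the filter. It was 24 members by library totals and 18 in TPM, for which no all-gene share is given here. Below 0 under every scaling tried, again without an all-gene share, were 18 members (10 of complement, 8 of coagulation). These 18 were C1ra, Mbl1, Cfb, Hc, C6, C8b, C9, Cfi, Serping1, Vtn, Fga, Fgb, Fgg, F2, F7, F11, F12 and Proc.

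The DKO library was the lowest of the 4 for 25 members, 15 of 21 in complement and 10 of 21 in coagulation, where it was the lowest for 32.7% of all genes. In TPM it was the lowest for 13 members, or 31.0%, beside 11.8% of all genes. WT was the highest library for 23 members, or 54.8%, beside 29.0% of all genes. DKO was the highest for 2, Cfp and F13b, or 4.76%, beside 30.2% of all genes. In bulk tissue, fewer cells of a type and less RNA per cell cannot be told apart.

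The terminal pathway held the lowest folds of the whole set. C9, the subunit that polymerises into the wall of the pore, stood at 596 CPM in WT, 441 in Cyp27a1 KO, 362 in Cyp3a KO and 89.9 in DKO. Both single knockouts were below WT, Cyp3a KO by 1.65-fold (1.62 to 1.68), and DKO was below all 3, at 6.63-fold under WT (95% interval 6.43 to 6.84), 4.02-fold under Cyp3a KO and 4.91-fold under Cyp27a1 KO. C6, which binds C5b and starts the assembly, was at 259, 240.5, 251 and 70.5 CPM in the same order. Its single knockouts lay close to WT, and DKO was 3.67-fold below WT (3.54 to 3.81). C8b, the beta chain of C8, was at 362, 332, 350.0 and 154 CPM, so that DKO alone was low, 2.35-fold under WT (2.29 to 2.41). In TPM, where all genes shift upward, C8b was at a log2 fold of -0.86 against WT and lost its call in all 3 DKO comparisons, while C9 at -2.35 and C6 at -1.57 kept theirs.

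The other terminal genes did not pass 2-fold. C8a, the alpha chain to which C8b binds, was at 565 CPM in WT, 575 in Cyp27a1 KO, 618 in Cyp3a KO and 468 in DKO, and its log2 fold in DKO against WT of -0.27 turned to 0.12 in TPM. C8g, the third chain, was at 326, 251, 274 and 267 CPM, with WT the highest. Hc, which encodes C5, was at 808, 788, 832 and 545 CPM, with DKO the lowest at a log2 fold of -0.57 against WT and -0.61 against Cyp3a KO. Thus the 3 chains of C8 did not keep 1 ratio: per length, C8b over C8a was 1.06 in WT, 0.928 in Cyp27a1 KO, 0.906 in Cyp3a KO and 0.532 in DKO, measured in TPM. On the same scale C9 over C8a went from 1.92 in WT through 1.37 and 1.02 to 0.344 in DKO. C6 over C8a was 0.606, 0.566, 0.564 and 0.187. Summed over the 6 terminal genes, DKO held 0.547 of the WT CPM and 0.706 of the WT TPM.

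C8a and C8b are neighbours on opposite strands, 11130 bases apart, at chr4:104815679-104876398 and chr4:104766317-104804548, and their folds differed in DKO. C6 (chr15:4727175-4814967) and C9 (chr15:6445327-6498751) lie on 1 chromosome, 1630359 bases apart and both on the plus strand. In DKO against WT, C6, C9 and C8b were called lower, at log2 folds of -1.87, -2.72 and -1.23, and C8a, at -0.27, was not. For that reason the stretches just upstream of the first annotated base of these 4 genes are shown. They are RefSeq promoter windows of the GRCm38.p6 build, 5′ to 3′ on the gene's strand, and capitals mark motif matches.
C9 (chr15:6445096-6445326, plus): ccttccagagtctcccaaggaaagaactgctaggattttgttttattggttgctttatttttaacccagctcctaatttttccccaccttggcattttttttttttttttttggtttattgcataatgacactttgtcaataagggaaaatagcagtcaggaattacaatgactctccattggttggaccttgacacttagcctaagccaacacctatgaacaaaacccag
C6 (chr15:4726960-4727174, plus): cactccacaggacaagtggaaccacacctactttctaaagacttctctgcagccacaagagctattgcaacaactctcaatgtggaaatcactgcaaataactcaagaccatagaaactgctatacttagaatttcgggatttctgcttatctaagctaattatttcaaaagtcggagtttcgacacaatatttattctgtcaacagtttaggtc
C8b (chr4:104766067-104766316, plus): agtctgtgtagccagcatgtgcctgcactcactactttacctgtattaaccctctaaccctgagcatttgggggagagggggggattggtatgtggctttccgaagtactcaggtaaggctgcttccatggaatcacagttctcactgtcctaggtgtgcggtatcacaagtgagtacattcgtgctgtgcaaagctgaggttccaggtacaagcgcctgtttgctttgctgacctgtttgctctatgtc
C8a (chr4:104876399-104876648, minus): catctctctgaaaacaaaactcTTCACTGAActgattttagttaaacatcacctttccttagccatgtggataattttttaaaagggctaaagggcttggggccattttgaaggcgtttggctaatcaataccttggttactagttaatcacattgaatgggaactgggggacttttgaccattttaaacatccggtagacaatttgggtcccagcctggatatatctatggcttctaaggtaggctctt
The capitals in C8a are the only match in these 4 stretches, TTCACTGAA, to the STAT motif TTCNNNGAA; a further match of C6, to the interleukin-6 response motif CTGGGAA, lies nearer its start than the printed stretch. The search covered both strands and, besides these motifs, those of HNF1 (GTTAATNAT), HNF4 (CAAAGTCCA), C/EBP (TTGCGCAA), the farnesoid X receptor (GGTCANTGA) and the promoter box with the letters TATAAA.

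Of the upstream complement routes, the lectin pathway held 1 called gene. Mbl1, a mannose-binding lectin at chr14:41151458-41159601, was at 134 CPM in WT, 131 in Cyp27a1 KO, 130.4 in Cyp3a KO and 66.4 in DKO. The first 3 libraries were level and DKO was 2.02-fold below WT (1.94 to 2.11), just inside the 2-fold rule, whereas against each single knockout it was 1.97-fold lower and just outside. The call was lost under each other scaling and with a pseudocount of 2, with log2 folds from -0.66 in TPM to -0.996. Mbl2, the second lectin of the mouse, was at 230.3, 229, 244 and 243 CPM, with no library apart. Per length, Mbl1 over Mbl2 was 0.727, 0.711 and 0.666 in WT and the single knockouts and 0.340 in DKO. The lectin-associated protease Masp1 was at 63.6, 68.2, 84.6 and 78.8 CPM, lowest in WT, and Masp2 ranged from 171 to 204 CPM.

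The classical pathway had no called gene in any comparison. C1ra and C1s1, the proteases of the C1 complex, were both lowest in DKO, at 255 and 296 CPM against 352 and 365 in WT. In TPM, C1ra stayed below 0 in DKO against WT at -0.10 while C1s1 was at 0.06. C4b, a thioester protein cleaved by C1s, lay between 1168 CPM in DKO and 1552 in Cyp27a1 KO. C2, the protease that joins C4b in the C3 convertase, was at 147 CPM in WT, 162 in Cyp27a1 KO, 178 in Cyp3a KO and 170.4 in DKO, and its log2 fold of 0.21 in DKO against WT ran counter to its neighbour Cfb, 85 bases away, at -0.53. An unnamed gene of the same strand, Gm20547, covers 19439 bases of C2 and 6107 of Cfb. It held 7039 counts over the libraries, beside 33055 for C2 and 196387 for Cfb, and shared reads may have been split between them. C1ra, C1s1, C4b and Kng1 have close relatives in the mouse genome that short reads may not separate, so their values are uncertain. Of 5 listed relatives 4 were among the measured genes, and these include no relative of C4b. Among them C1rb and C1s2 were at or below 0.365 CPM, C1rl was at 80.6 to 118 CPM and Kng2 at 192 to 231 CPM.

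C3 and the alternative pathway were the one role group whose summed CPM was above WT in DKO. In TPM only the terminal genes (0.706), fibrinogen with factor XIII (0.749) and the regulators (0.800) were below WT. The other role groups were at 1.02 to 1.36 there, with C3 and the alternative pathway the highest. C3, the hub on which all routes meet and the complement gene with the highest mean level per length, was at 7114 CPM in WT, 9394 in Cyp27a1 KO, 7466 in Cyp3a KO and 9248 in DKO. Both libraries without Cyp27a1 were high, at log2 folds of 0.40 and 0.38 against WT. Neither passed 1.5-fold on the scaled counts, while DKO did in TPM, at 0.65. Within complement, C3 made up 21.6% of the TPM in WT, 28.4% in Cyp27a1 KO, 25.6% in Cyp3a KO and 33.8% in DKO. Cfb, the factor B protease of the alternative convertase, was at 1270.3, 906, 886 and 880.0 CPM. WT alone was high there, and the 3 knockouts were level with each other at log2 folds of -0.49, -0.52 and -0.53 against WT.

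Cfp, which encodes properdin, the stabiliser of the alternative convertase, is made mostly by myeloid cells and was the least abundant member. It was at 16.3 CPM in WT, 18.1 in Cyp27a1 KO, 11.1 in Cyp3a KO and 23.8 in DKO. The Cyp3a KO library was the lowest and DKO the highest, 2.15-fold above Cyp3a KO (1.94 to 2.38), and a pseudocount of 2 took the log2 fold to 0.98 and ended the call. Kupffer cell markers, which stand for the resident macrophages of the liver, mostly ran the same way. All 10 passed the filter and none was at 0, 6 of 10 were called higher in DKO than in Cyp3a KO (median log2 fold 1.35) beside 4.02% of all genes, and their summed level was 254, 254, 169 and 388 CPM. Cd163 went the other way, at 29.9, 15.3, 15.9 and 9.82 CPM and lowest in DKO. C1qb, a macrophage-made chain of C1q, was at 33.9, 36.3, 21.3 and 47.2 CPM and was the only one of 17 other complement genes past the filter that was called, at 1.13 in DKO against Cyp3a KO. Neutrophil and monocyte markers summed to 2.40 to 4.19 CPM, with Mpo and Ly6g at 0 in every library. The part of these cells in the Cfp value was not tested.

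Complement regulators were lower in sum in DKO, at 0.624 of the WT CPM and 0.800 of the WT TPM. Vtn, vitronectin, which blocks pore insertion, led this: 2226 CPM in WT, 1784 in Cyp27a1 KO, 1722 in Cyp3a KO and 1168 in DKO. All 3 knockouts were below WT and DKO was the lowest, at 1.91-fold (1.89 to 1.92). Serping1, the C1 inhibitor, which also restrains the contact proteases of coagulation, was at 680.3, 656, 543 and 468 CPM, again with DKO the lowest. C4bp, the binding protein that disables C4b, was at 398, 496, 407 and 343 CPM, highest in Cyp27a1 KO, and its log2 fold in DKO against WT of -0.21 turned positive in TPM. Cfi, factor I, which cuts C3b and C4b, ran from 394 to 499 CPM.

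**Figure D2:**
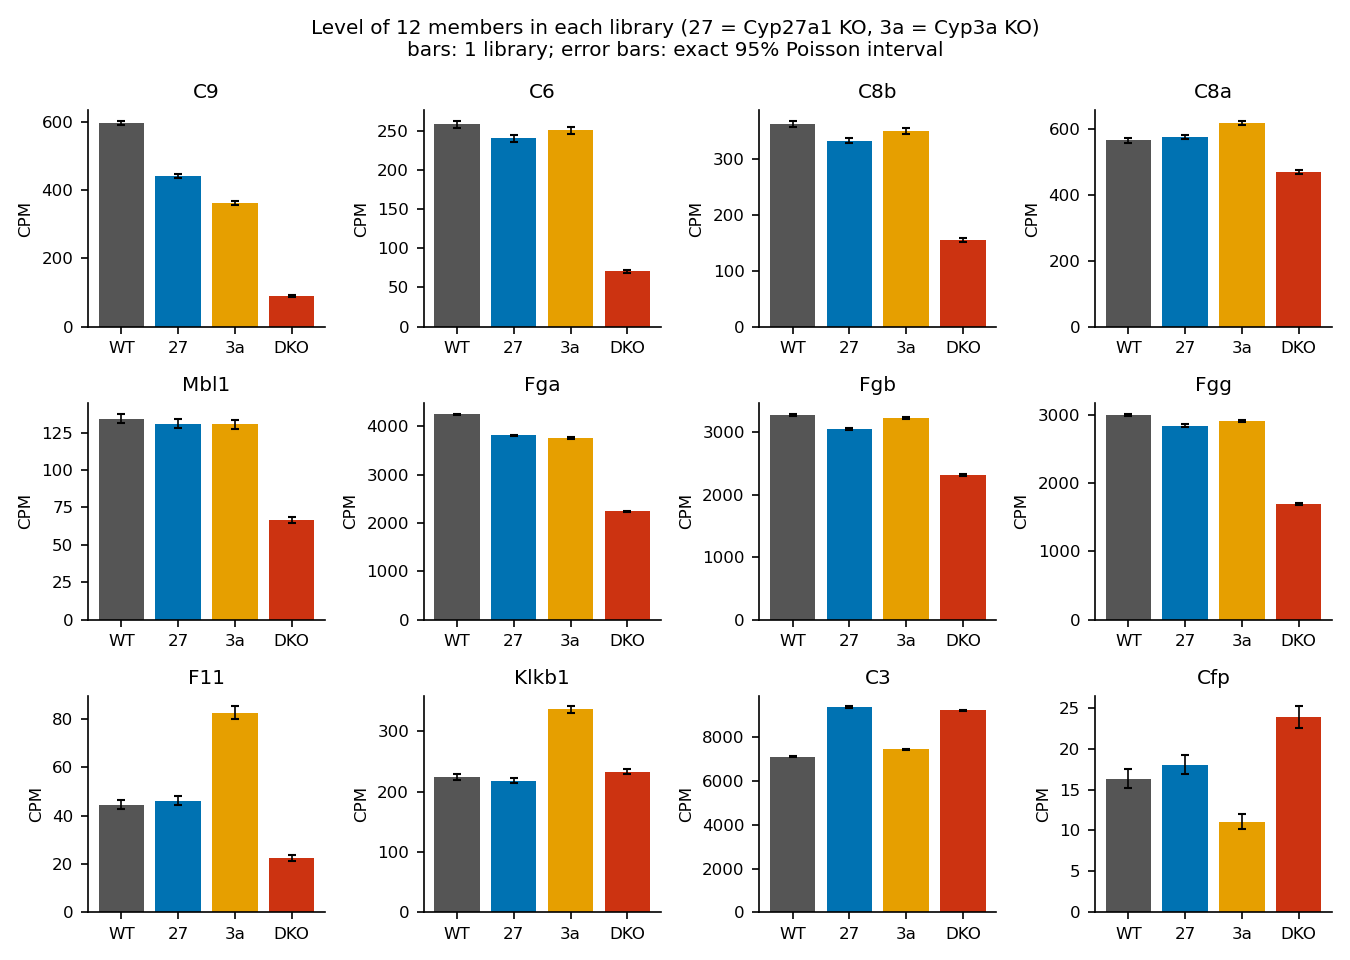
Level in CPM of 12 members in each of the 4 libraries (bars start at 0), with exact 95% Poisson intervals that cover counting error only. DKO is the lowest bar for C9, C6, C8b, C8a, Mbl1, the 3 fibrinogen chains and F11. Cyp3a KO is the highest for F11, Klkb1 and C8a, and C3 is high in both libraries without Cyp27a1.

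Among coagulation genes the fibrinogen chains were abundant and stood together below WT in DKO. Fga, the alpha chain, was at 4244 CPM in WT, 3809.7 in Cyp27a1 KO, 3754 in Cyp3a KO and 2239 in DKO. Fgg, the gamma chain, was at 3002, 2842, 2906 and 1695 CPM, and Fgb, the beta chain, at 3288, 3061, 3226 and 2316 CPM. In all 3 the single knockouts lay slightly below WT and DKO further below, by 1.90-fold for Fga (1.88 to 1.91), 1.77-fold for Fgg (1.76 to 1.79) and 1.42-fold for Fgb (1.41 to 1.43), none of which reached 2-fold. The DKO value stayed below WT under every scaling, at log2 folds of -0.57, -0.46 and -0.14 in TPM. F13b, the carrier subunit of the factor XIII that crosslinks fibrin, went the other way, with 157, 178, 191 and 209 CPM and a log2 fold of 0.42 in DKO.

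Fibrinogen is assembled from equal numbers of the 3 chains, but their messages did not hold 1 ratio. Per length, Fga over Fgb was 2.45 in WT, 2.33 in Cyp27a1 KO, 2.21 in Cyp3a KO and 1.83 in DKO. Fgg over Fgb was 2.20, 2.24 and 2.17 in WT and the single knockouts and 1.76 in DKO. The DKO liver thus had less alpha and gamma message for each beta message. Summed with F13b, the group stood in DKO at 0.604 of the WT CPM and 0.749 of the WT TPM.

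The 3 chains form a cluster: Fgg at chr3:83007724-83015049, Fga at chr3:83026076-83033627 and Fgb, on the other strand, at chr3:83040141-83049863. Gaps of 11026 and 6513 bases part them. Their upstream stretches, from the same RefSeq windows, are given because the 3 are classic acute-phase genes that stood lower together in DKO, and capitals mark motif matches.
Fga (chr3:83025903-83026075, plus): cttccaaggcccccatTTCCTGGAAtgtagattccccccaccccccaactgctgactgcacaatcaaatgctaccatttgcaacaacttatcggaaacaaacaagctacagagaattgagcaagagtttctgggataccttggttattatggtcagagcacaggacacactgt
Fgg (chr3:83007474-83007723, plus): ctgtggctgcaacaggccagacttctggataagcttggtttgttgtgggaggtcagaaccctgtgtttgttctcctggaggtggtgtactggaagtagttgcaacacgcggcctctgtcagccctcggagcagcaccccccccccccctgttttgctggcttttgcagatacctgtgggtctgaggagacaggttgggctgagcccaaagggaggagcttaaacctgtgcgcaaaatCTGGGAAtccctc
Fgb (chr3:83049864-83050113, minus): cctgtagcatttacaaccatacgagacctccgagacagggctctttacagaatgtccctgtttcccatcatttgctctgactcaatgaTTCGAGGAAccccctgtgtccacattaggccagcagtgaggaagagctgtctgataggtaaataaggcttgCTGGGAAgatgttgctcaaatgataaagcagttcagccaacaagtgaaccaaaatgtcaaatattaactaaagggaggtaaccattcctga
The capitals in Fga are a STAT match, TTCCTGGAA. Fgg carries the interleukin-6 response letters CTGGGAA, and Fgb carries both these and a STAT match, TTCGAGGAA. An HNF1 match of Fga lies 46 bases before its RefSeq start, outside the printed stretch.

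Windows of 300 bases were found for 33 of the 42 members, 35 windows in all, and for none of Serping1, Proc, Kng1, Cfi, C4b, Plg, Masp1, C2 and Cfb. The STAT letters TTCNNNGAA occurred in 8 of the 35 members' windows, 4 of complement and 4 of coagulation, beside 8.30% of all 32851 windows. CTGGGAA occurred in 7 of 35, beside 11.1% of all windows, and it overlaps the STAT match in F9, Masp2 and Vtn. GTTAATNAT occurred in 4, those of C4bp, F13b, Fga and Hc, beside 0.801% of all. TATAAA was found in 4 of 35 beside 13.6%, and CAAAGTCCA, TTGCGCAA and GGTCANTGA were in none of them, beside 0.475%, 0.183% and 0.840% of all windows. A match gives letters in a window and no binding.

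Genes of thrombin generation held no member past 1.5-fold in any of the 5 comparisons. F2, prothrombin, was at 1838 CPM in WT, 1722 in Cyp27a1 KO, 1489 in Cyp3a KO and 1408 in DKO. F5, the cofactor of the prothrombinase, was at 429, 361, 498 and 373 CPM, and F9, the protease lost in haemophilia B, at 203, 199, 162 and 182 CPM. F7, which starts the cascade with tissue factor, and F10, which cleaves prothrombin, were both lowest in DKO, at 51.5 and 296 CPM, and their lowest and highest libraries differed by 1.37-fold and 1.14-fold.

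The contact system held F11, the one coagulation gene past 2-fold. F11, whose protease activates factor IX, was at 44.5 CPM in WT, 46.1 in Cyp27a1 KO, 82.6 in Cyp3a KO and 22.4 in DKO. Cyp3a KO was the highest library and DKO the lowest, 3.69-fold apart (3.46 to 3.93). Its log2 fold was 0.88 in Cyp3a KO against WT and -1.02 in DKO against Cyp27a1 KO, so that loss of Cyp3a went with a higher level where Cyp27a1 was intact and a lower one where it was not; this difference was not tested. The call against Cyp27a1 KO was lost by library totals (-0.91), in TPM (-0.66) and with a pseudocount of 2 (-0.98).

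Klkb1, plasma prekallikrein, lies 4657 bases from F11 on the same strand and shared only part of that pattern. It was at 224 CPM in WT, 218 in Cyp27a1 KO, 336 in Cyp3a KO and 233 in DKO, so Cyp3a KO alone was high, at a log2 fold of 0.58 over WT (interval of the ratio 1.46 to 1.54). Per length, F11 over Klkb1 was 0.520, 0.535, 0.645 and 0.276 in the 4 libraries. An unnamed gene of the same strand, Gm45753, covers 25189 bases of Klkb1, and reads they share may have been split between them. F12, the trigger of the contact system, was at 567, 481, 411 and 378 CPM, highest in WT. Kng1, which encodes kininogen, lay between 1669 and 1986 CPM.

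No anticoagulant or fibrinolytic gene passed 1.5-fold on the scaled counts in any comparison. In TPM, Serpinf2 and Proz were past it in DKO against WT, at log2 folds of 0.69 and 0.60. Cpb2 was past it in TPM in DKO against Cyp3a KO, at 0.62. Proc, protein C, which destroys factors Va and VIIIa, was at 418, 372, 411 and 309 CPM in WT, Cyp27a1 KO, Cyp3a KO and DKO. Proz, protein Z, a cofactor in the inhibition of factor Xa, was at 255, 319, 340.2 and 314 CPM, with WT the lowest. It sits 4237 bases from F10 on chromosome 8, and that neighbour had a log2 fold of -0.19 in DKO against 0.30 for Proz. Serpinc1, antithrombin, had the highest mean level per length of all members and was at 2099, 1967, 1741 and 1837 CPM. Pros1, the cofactor of protein C, and Serpind1, heparin cofactor II, varied by 1.19-fold and 1.26-fold between their lowest and highest libraries. In sum the 5 anticoagulants stood in DKO at 0.899 of the WT CPM and 1.18 of the WT TPM.

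Of the fibrinolysis genes, Plg, plasminogen, was at 2322, 2218, 2238 and 1901 CPM. Serpinf2, the plasmin inhibitor, was at 567 CPM in WT and 694, 696 and 671 in the knockouts, so that WT alone was low. Cpb2, a carboxypeptidase that protects fibrin from plasmin, was at 314, 288, 235 and 298 CPM, lowest in Cyp3a KO. The 7 members that need vitamin K for activity (F2, F7, F9, F10, Proc, Pros1 and Proz) had a median log2 fold of -0.19 in DKO against WT, with 0 of 7 called in any comparison.

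**Figure D3:**
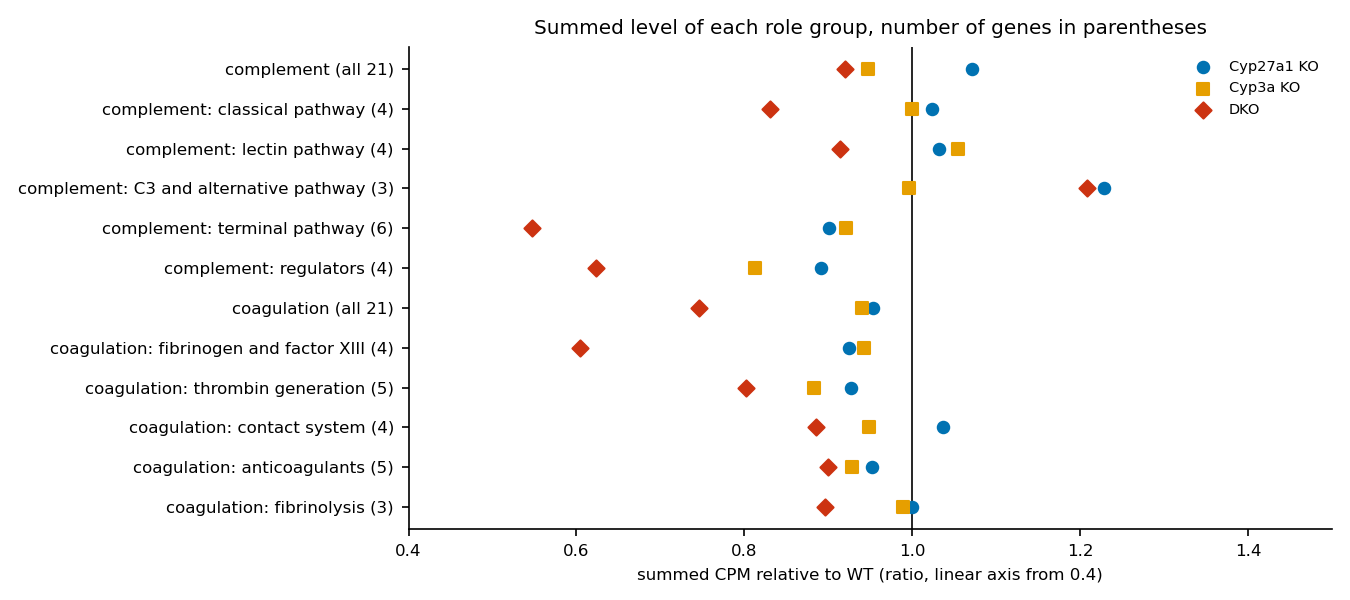
Summed CPM of each role group relative to WT in the Cyp27a1 KO, Cyp3a KO and DKO libraries (ratio on a linear axis that starts at 0.4), with the number of genes in parentheses. In DKO the terminal pathway (0.547), fibrinogen with factor XIII (0.604) and the regulators (0.624) are the farthest below 1, and C3 with the alternative pathway is above it at 1.21.

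Summed over each set in CPM, complement stood nearer to WT than coagulation did in DKO, an order that rested on C3. Complement genes summed to 18007 CPM in WT, 19296 in Cyp27a1 KO, 17063 in Cyp3a KO and 16569 in DKO, and coagulation genes to 22682, 21610.0, 21325 and 16915 CPM. DKO thus held 0.920 of the WT sum for complement and 0.746 for coagulation. C3 alone accounted for 7114 CPM of the complement sum in WT and 9248 in DKO. Without C3, complement stood farther below WT than coagulation. The complement role groups other than C3 with the alternative pathway were at 0.547 to 0.913 of WT in DKO. Within coagulation, fibrinogen with factor XIII was at 0.604 and the other role groups at 0.802 to 0.899. In TPM, where each message counts once whatever its length, the ratios were 1.004 and 0.990, so the gap between the sets was not seen there.

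Each deletion can be read on 2 backgrounds that share no library. Loss of Cyp27a1 is Cyp27a1 KO against WT and, where Cyp3a was already gone, DKO against Cyp3a KO. On the scaled counts, the sign of the log2 fold was the same in both for 30 of 42 members (71.4%), beside 60.3% of all genes. For loss of Cyp3a it was again 30 of 42, beside 57.9% of all genes, with 13 of 21 in complement and 17 of 21 in coagulation. Signs of folds near 0 depend on the scaling. The members' median in Cyp27a1 KO against WT was -0.07 on the scaled counts and 0.11 in TPM, where all genes were at 0.18. Sign agreement under other scalings was not counted. C9 was the only member at least 1.5-fold lower on both backgrounds, and that for loss of Cyp3a, at -0.72 and -2.29, which is 1 of 42 beside 1.84% of all genes. For loss of Cyp27a1 there was none, beside 1.80%.

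The DKO folds of 4 members went at least 2-fold below the sum of the single folds. For C6 the single log2 folds added up to -0.15, the DKO stood at -1.87, and the departure was -1.72. C9 departed by -1.57, C8b by -1.05 and F11, whose single folds added up to 0.93, by -1.91. Among all genes 3.49% departed by as much in that direction, and no member departed as far upward. The median departure was -0.20 over the members and -0.02 over all genes.

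**Figure D4:**
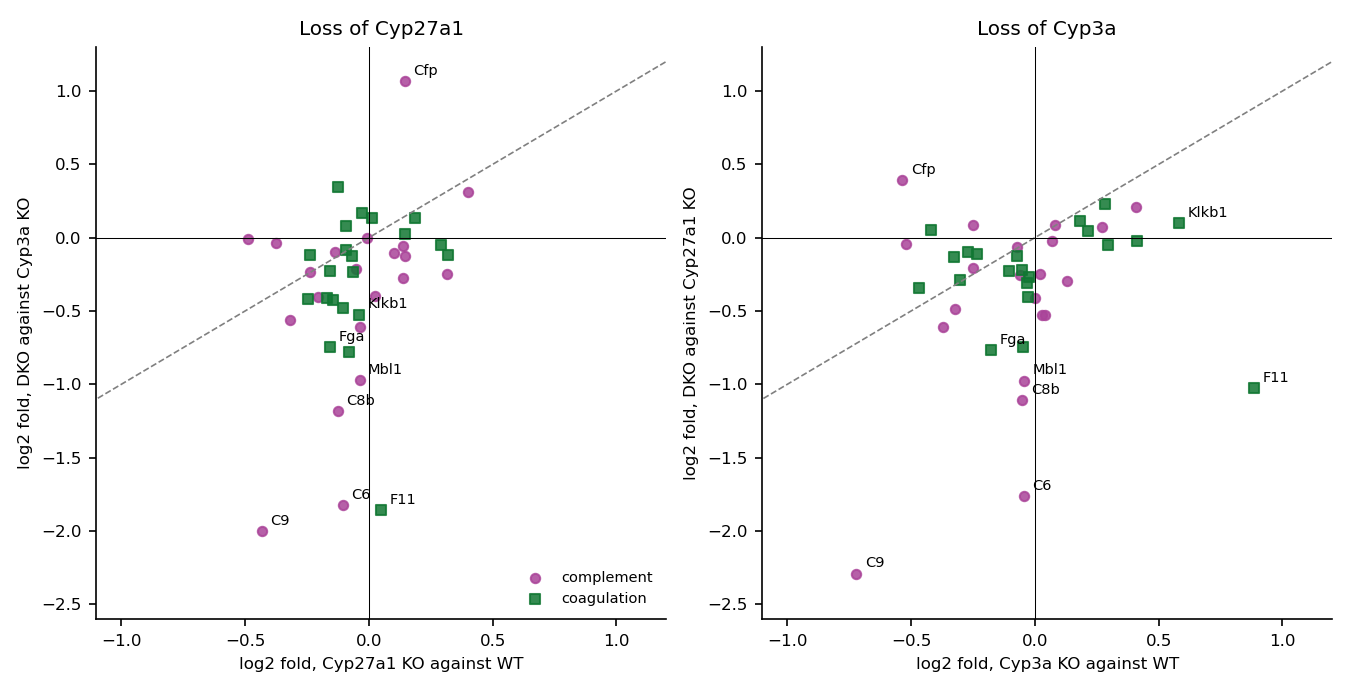
Log2 fold for the loss of Cyp27a1 (left) and of Cyp3a (right), with the other enzyme intact on the horizontal axis and absent on the vertical axis; circles are complement genes, squares coagulation genes, and the dashed line marks equal folds. C9, C6, C8b and F11 lie far below the dashed line in both panels, and F11 for loss of Cyp3a is at 0.88 and -1.02.

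Related genes outside the 42 were set beside them in DKO against WT, with no test of a difference. Of 17 other complement genes past the filter 0 were called, and of 16 other coagulation genes also 0, where 705 of all 11743 genes were called higher and 472 lower. At 1.5-fold each of these lists had 2 genes higher and 1 lower. Of 15 acute-phase genes outside the set, 13 were below WT (median log2 fold -0.50). Past 2-fold among them were Orm3, higher at 3.27, and Saa4, Saa1 and Saa3, lower at -1.79, -1.74 and -1.35. The 14 other hepatocyte-secreted proteins had a median log2 fold of -0.19, and 1 of them, Ttr, was called lower at -1.17. Among 16 liver transcription factors and signal genes, 0 were called, 5 were at least 1.5-fold lower and the median was -0.47. Onecut1 and Foxa1 were at -0.85, Cebpb at -0.84 and Hnf4a at -0.76. Above 0 were 4 of the 16, with Nr0b2 the highest at 0.56. The part of these genes outside the 42 in the members' values was not tested.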

How the data were processed

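Each of the 4 genotypes was represented by liver RNA of 1 male mouse in a TruSeq v2 library. Per the submitters' processing notes the tools were kallisto 0.43.1, HISAT2 2.0.5 and Trimmomatic 0.33, in roles not stated, with mm10 as the build; annotation release and strand use in counting: not given in the sources used here. Gene-level estimated counts as deposited by the authors (57.7% of values whole) were rounded to integers. TPM values, also deposited by the authors, served for levels between genes and as an alternative. A header-like row without a gene, at 0 counts, was dropped. The 4 libraries held 49745860 to 50378101 counts, so 1 count was worth 0.0185 to 0.0214 CPM.

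Counts were scaled by TMM (edgeR 4.0.16, R 4.3.3); a fold is the ratio of CPM, and a log2 fold uses CPM + 0.5. A call needed 2-fold, a mean CPM of at least 1 and an exact 95% Clopper-Pearson interval (conditional binomial) that left out 1. No p-value was computed, and no fit was made with DESeq2 1.42.0, which gave only its size factors as an alternative scaling. The rule was tested on simulated counts, which hold counting error only. Coordinates came from GENCODE M21 (GRCm38, the mm10 build), where all 42 symbols matched 1 gene; 12 members overlap a gene of the other strand and 7 one of the same strand, and reads of such pairs may not be separated. Promoter windows (250 bases before to 50 after a start) came from RefSeq.

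The members, role groups and marker lists were chosen with earlier results of these data known. Full values were given for members called in any comparison, the 3 highest and 3 lowest folds of complement and of coagulation genes in each comparison with WT, and the fibrinogen chains; of other genes, the deleted ones, close relatives and at most 4 of a list. Alternatives were other scalings, filters, pseudocounts and fold sizes, no counting interval and leaving out members with a near-identical copy; after seeing the data, a version of the TPM folds centred on the median gene was added. Endothelial (9 of 9 past the filter), stellate (10 of 10), cholangiocyte (4 of 6), platelet (1 of 7), erythroid (5 of 5), interferon (14 of 15) and lymphocyte (0 of 9) lists had median log2 folds in DKO against WT of -0.12, -0.39, -0.10, -0.85, -1.16 and 1.27, with none for lymphocytes.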

Additional observations from a re-analysis of the deposited data

Results flagged for a closer look

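F11, the contact protease factor XI, moved in opposite directions with the loss of Cyp3a. The log2 fold was 0.88 with Cyp27a1 intact (82.6 CPM in Cyp3a KO, 44.5 in WT) and -1.02 with Cyp27a1 absent (22.4 CPM in DKO, 46.1 in Cyp27a1 KO). It was picked out because its values on the 2 backgrounds have opposite signs. Each value rests on 1 library per genotype, and the difference was not tested.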

How the results depend on the processing

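No called fold changed sign under any of the 12 settings run. At 1.5-fold the members called numbered 2 in Cyp3a KO against WT (beside 7.38% of all genes higher and 5.66% lower), 8 in DKO against WT, 9 in DKO against Cyp3a KO and 8 in DKO against Cyp27a1 KO, the latter 3 beside 24.1%, 17.0% and 14.5% of all genes; at 4-fold each of the 3 DKO comparisons had 1. No all-gene share is given here for 4-fold. With deposited TPM 2 members were called in DKO against WT, where 1259 of all genes were called higher and 266 lower. Against Cyp27a1 KO it was also 2 in TPM, beside 460 of all genes higher and 245 lower. Library-total scaling left 2 there too, beside 420 higher and 264 lower. The cause was not tested, beyond that the median of all genes lay at 0.33 in DKO against WT in TPM and that fewer genes can pass a larger fold. The difference of medians, complement minus coagulation, in DKO against Cyp3a KO was -0.0155 in TPM, -0.0155 in TPM recentred on the median gene and 0.0033 without the members that have a near-identical copy. Summed level in DKO over WT was 1.004 for complement and 0.990 for coagulation in TPM, against 0.920 and 0.746 in CPM. No paired analysis was possible because each genotype has 1 library, and for the same reason no library could be left out. Depth was not the limit for these genes; 1 animal per genotype was, since variation between animals cannot be told apart from genotype.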
